A study of Mus musculus with 32 samples.

Results

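The secreted Wnt proteins, their Frizzled receptors and the secreted proteins that tune them were examined as 1 family of 41 genes, out of 21883 protein-coding mouse genes. Genes were taken by symbol: 19 Wnt ligands, 10 Frizzled receptors (Fzd), 4 secreted Frizzled-related proteins (Sfrp), 4 Dickkopf antagonists (Dkk) and 4 R-spondins (Rspo). For each gene, the fraction of the gene plus 5 kb on each side that lay in deposited peaks was computed in each of 30 CUT&Tag libraries. CUT&Tag maps a chromatin mark by tethering a transposase to an antibody against it. A fraction of 0 means that no peak touched the window, and 1 that peaks covered all of it.

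Wnt proteins bind Frizzled receptors together with an Lrp coreceptor and thereby keep beta-catenin from being degraded, so that it can enter the nucleus and act with Tcf and Lef factors. Secreted Frizzled-related proteins bind Wnt proteins outside the cell, Dickkopf proteins block the coreceptor, and R-spondins raise the amount of receptor at the surface. Many genes of the family are silent in blood cells and act in the embryo and in the bone marrow stroma, and such silent developmental genes are textbook targets of Polycomb complexes. Polycomb repressive complexes deposit H3K27me3 and H2AK119ub, whereas H3K4me1 marks enhancers. Asxl1 is a cofactor of the Bap1 enzyme, which removes ubiquitin from H2A.

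The cells were HoxB8 cells, mouse bone marrow cells immortalised with HoxB8 and grown with stem cell factor and estrogen, and estrogen had been removed for 48 h from every group. Control cells carried a non-targeting guide and the empty pMICH vector. The Asxl1 guide cells carried the guide B2 against Asxl1 and the empty vector, which the series describes as an Asxl1 truncation. The CSF3R cells carried the non-targeting guide and pMICH with CSF3R T618I, an activated form of the receptor for the neutrophil growth factor G-CSF. The double cells carried the Asxl1 guide and CSF3R T618I. Each of 3 marks had 2 control, 3 Asxl1 guide, 3 CSF3R and 2 double libraries. A peak list from 2 merged IgG libraries, 1 with the Asxl1 guide and 1 with CSF3R, served as background. The labels name a single Asxl1 guide and do not say whether lines were clones or whether libraries came from separate cultures. All p-values therefore measure the spread between these libraries, which may be technical. The study's design sets each mutation and their combination against control.

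The lists held 6071 to 45373 peaks for H3K27me3, covering 4.73 to 53.0 Mb, and 11.8 to 39.1 Mb for H2AK119ub and 26.6 to 47.2 Mb for H3K4me1. Peak lists carry positions only, so depth is unknown and a difference in fraction cannot be told apart from a difference in depth or in the number of peaks called. H3K27me3 replicate 2 of the Asxl1 guide stood apart: its peaks spanned 53.0 Mb, while those of replicates 1 and 3 spanned 4.73 and 12.4 Mb. Counts, means and calls that change without it are given both ways. The label of the cells was checked with H3K4me1. Of 11 myeloid and progenitor marker genes 9 had a mean fraction of at least 0.05, against 14.1% of all genes, with summed fractions of 2.12 to 3.86 per library. No peak was found at 5 of 6 B and T cell markers and 6 of 7 stromal and other non-blood markers. The same held for 2 of 6 erythroid and megakaryocyte markers, of which 1 had a mean of at least 0.05. As 62.6% of all genes had no H3K4me1 peak, absence alone says little about the label.

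Promoter sequences of 27 of the 41 genes were matched by gene ID in RefSeq (GRCm38.p6, the assembly behind mm10). In the 250 bases before the start, the dinucleotide CG, read on the gene's strand, occurred a median of 23 times in these 27 genes and 10 times in 17491 promoters of protein-coding genes. The count ran from 5 in Wnt8b to 48 in Wnt9a. The following 6 promoters are shown, with every CG in capitals, because they span the patterns of marks described next. Wnt9a (chr11:59306680-59306929, plus strand) and Wnt10b (chr15:98778151-98778400, minus strand) carried both Polycomb marks over the start. Fzd5 (chr1:64737751-64738000, minus strand) carried H2AK119ub and no H3K27me3, and Fzd4 (chr7:89404116-89404365, plus strand) carried H2AK119ub in every library and H3K27me3 in 3. Wnt8b (chr19:44493222-44493471, plus strand) carried H3K27me3 near its end and, in 6 of 10 libraries, before the start. It also had H2AK119ub within 2.5 kb of the start in all 10 libraries, at fractions of 0.05 to 0.25. Dkk1 (chr19:30549497-30549746, minus strand) carried neither mark.
Wnt9a: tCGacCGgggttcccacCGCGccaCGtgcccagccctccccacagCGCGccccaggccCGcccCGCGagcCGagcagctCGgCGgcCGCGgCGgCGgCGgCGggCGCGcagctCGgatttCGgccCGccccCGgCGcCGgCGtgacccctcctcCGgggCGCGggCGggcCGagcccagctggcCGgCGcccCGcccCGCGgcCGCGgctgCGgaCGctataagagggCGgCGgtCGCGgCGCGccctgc
Wnt10b: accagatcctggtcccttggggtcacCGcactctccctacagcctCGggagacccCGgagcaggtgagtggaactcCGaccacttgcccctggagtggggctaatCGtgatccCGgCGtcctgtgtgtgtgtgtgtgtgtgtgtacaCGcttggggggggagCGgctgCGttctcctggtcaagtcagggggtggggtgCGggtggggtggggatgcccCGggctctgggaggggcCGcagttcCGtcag
Fzd5: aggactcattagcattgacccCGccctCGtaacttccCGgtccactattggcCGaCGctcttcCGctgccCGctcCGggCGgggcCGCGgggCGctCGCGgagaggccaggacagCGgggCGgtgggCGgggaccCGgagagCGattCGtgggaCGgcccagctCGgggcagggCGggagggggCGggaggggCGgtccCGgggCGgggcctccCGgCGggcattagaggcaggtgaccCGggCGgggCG
Fzd4: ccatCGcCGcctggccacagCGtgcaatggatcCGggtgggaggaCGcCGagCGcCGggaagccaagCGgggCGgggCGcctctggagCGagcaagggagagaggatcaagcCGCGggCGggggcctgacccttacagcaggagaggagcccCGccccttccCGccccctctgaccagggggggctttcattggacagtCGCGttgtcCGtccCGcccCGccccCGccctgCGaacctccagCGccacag
Wnt8b: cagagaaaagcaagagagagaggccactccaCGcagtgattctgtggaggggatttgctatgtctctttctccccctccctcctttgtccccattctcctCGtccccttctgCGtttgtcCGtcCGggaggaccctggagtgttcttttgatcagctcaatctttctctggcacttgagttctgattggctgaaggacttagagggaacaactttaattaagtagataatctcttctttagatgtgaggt
Dkk1: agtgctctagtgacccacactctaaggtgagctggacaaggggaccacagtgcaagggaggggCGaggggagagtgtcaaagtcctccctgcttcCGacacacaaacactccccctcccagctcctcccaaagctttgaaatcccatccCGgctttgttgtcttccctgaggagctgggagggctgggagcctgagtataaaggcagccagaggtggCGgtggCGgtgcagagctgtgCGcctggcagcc
The CG count did not by itself order the genes by mark: Fzd5 with 32 CG and Fzd10 with 37 had mean H3K27me3 fractions of 0 and 0.0620 within 2.5 kb of their starts, while Wnt10b with 14 CG had 0.895. The Dickkopf genes with a sequence had 6 CG (Dkk1) and 7 (Dkk2), below the median of 10 over all promoters. Their mean H3K27me3 fractions within 2.5 kb of the start differed, at 0 for Dkk1 and 0.432 for Dkk2.

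Most of the family lay in Polycomb chromatin in every genotype. A mean H3K27me3 fraction of at least 0.05 over the 10 libraries, the limit used for testing, was reached by 29 of 41 members (70.7%) against 12.8% of all genes (29 members and 12.0% of all genes without Asxl1 guide replicate 2), and for H2AK119ub by 26 of 41 (63.4%) against 13.6%. For H3K4me1 only Rspo1, Wnt5b and Fzd4 reached it, 7.32% of the family against 14.1% of all genes. The mean over all 41 members was 5.50 to 7.81 times the mean over all genes in each H3K27me3 library, 3.48 to 7.04 times in each H2AK119ub library and 0.195 to 0.379 times in each H3K4me1 library. IgG peaks covered a mean of 0.0246 of the members' windows and 0.0132 of those of all genes, with 0.105 at Wnt11 as the highest. The windows were 12.1 to 160.8 kb long with a median of 30.8 kb, 14 of them hold part of another protein-coding gene, and those of Wnt6 and Wnt10a and of Wnt9b and Wnt3 overlap.

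**Figure D1:**
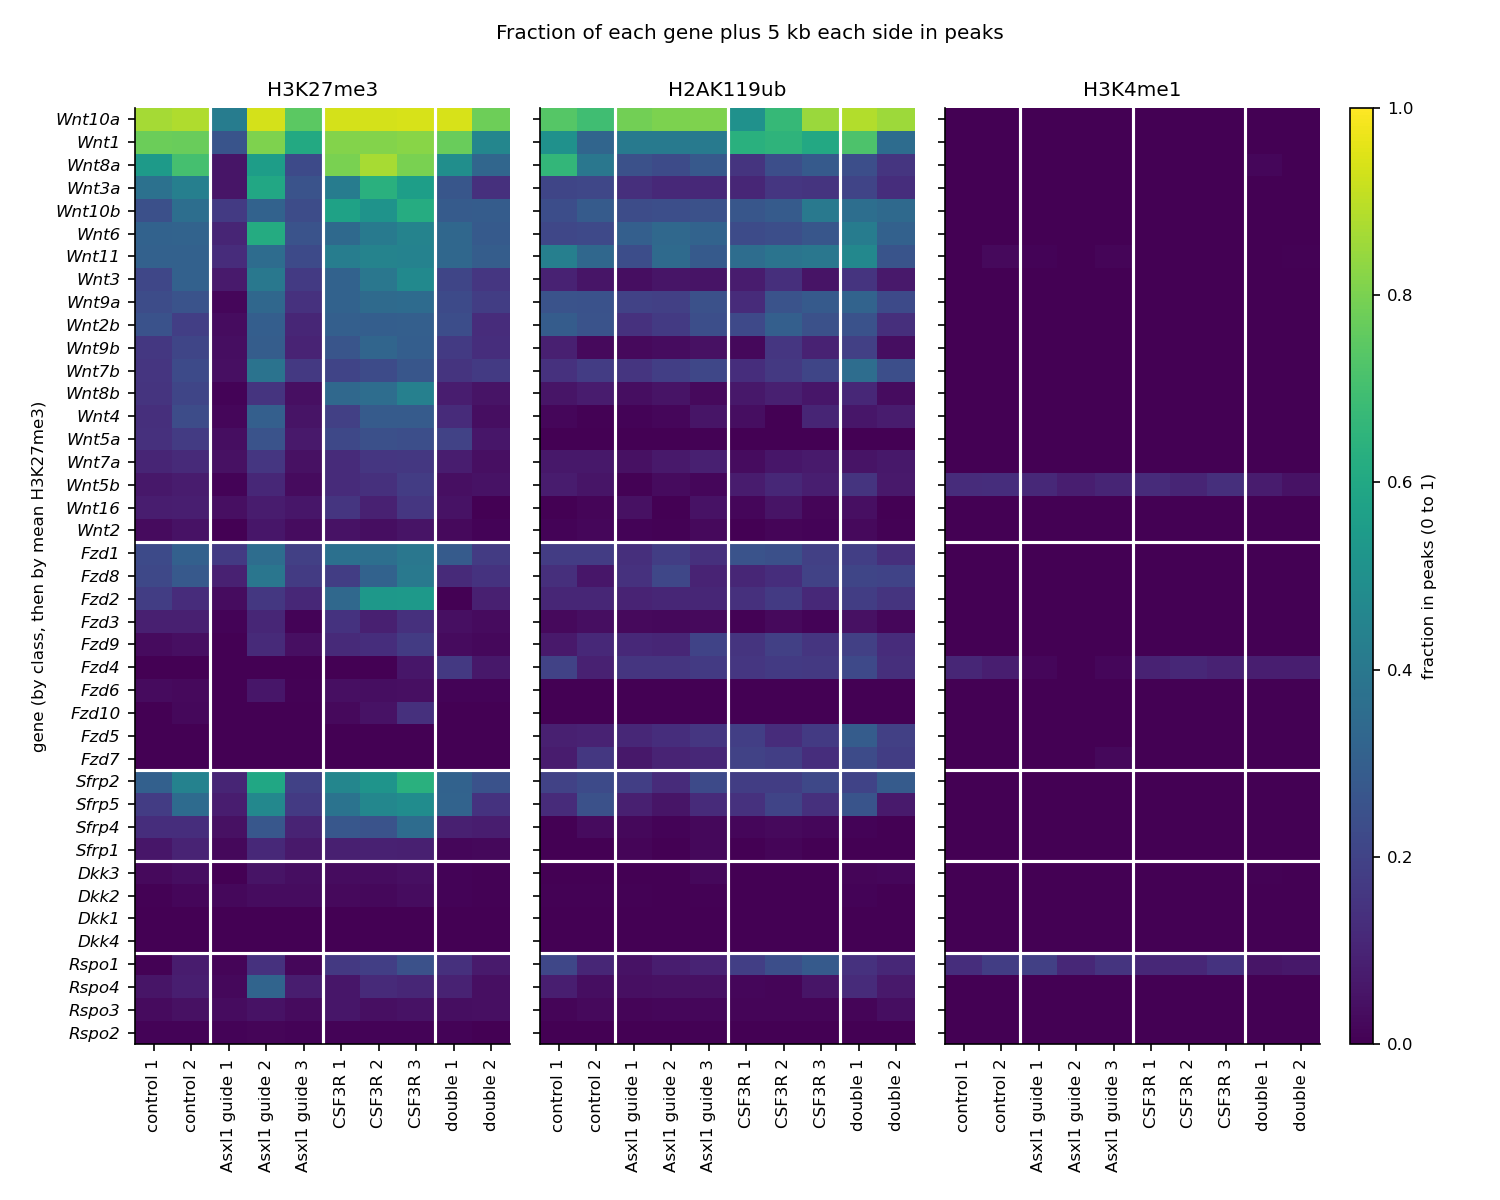
Fraction of each of the 41 genes plus 5 kb on each side in peaks (colour, 0 to 1) by library (columns, grouped by genotype) for H3K27me3, H2AK119ub and H3K4me1, with genes grouped as Wnt ligands, Frizzled receptors, secreted Frizzled-related proteins, Dickkopf antagonists and R-spondins. The ligands Wnt10a and Wnt1 lead both Polycomb marks, the Dickkopf rows are near 0, and H3K4me1 is seen mainly at Wnt5b, Fzd4 and Rspo1.

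The classes differed in how many of their genes reached this limit for each Polycomb mark. Among the ligands, 18 of 19 reached the limit for H3K27me3 and 15 of 19 for H2AK119ub, and every ligand had a peak of each mark in at least 1 library. All 4 secreted Frizzled-related proteins reached it for H3K27me3 and 2 for H2AK119ub. The Frizzled receptors ran the other way, with 5 of 10 for H3K27me3 and 7 of 10 for H2AK119ub. Of the R-spondins 2 of 4 reached it for each mark, and of the Dickkopf genes 0 of 4 for either. As the limit is a share of the window, a long gene with a peak at its start can miss it. All 4 R-spondins had an H3K27me3 peak in all 10 libraries, in windows of 92.8 kb for Rspo3 and 160.8 kb for Rspo2. Dkk2, with a window of 105 kb, also had one in all 10, and Dkk3 in 9. Within 2.5 kb of the Dkk2 start the mean H3K27me3 fraction was 0.432. Dkk1 and Dkk4 had no peak of either mark in any library. These counts describe the classes and were not tested against each other.

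The highest H3K27me3 means belonged to Wnt10a, Wnt1 and Wnt8a. Wnt10a (chr1:74792019-74804176), a ligand of skin appendages and teeth, had H3K27me3 fractions of 0.864 and 0.88 in control, 0.42, 0.936 and 0.747 with the Asxl1 guide, 0.936, 0.936 and 0.939 with CSF3R and 0.939 and 0.78 in double. Wnt1 (chr15:98789857-98793830), the ligand needed for the midbrain, had 0.775 and 0.771 in control, 0.26, 0.807 and 0.607 with the Asxl1 guide, 0.814, 0.814 and 0.822 with CSF3R and 0.771 and 0.46 in double. In both, every library but Asxl1 guide replicate 1 and, for Wnt1, double replicate 2 was above 0.6, so the mark filled most of the window. Wnt8a (chr18:34542327-34548061), a ligand of the early embryo, had 0.547 and 0.705 in control, 0.0572, 0.556 and 0.226 with the Asxl1 guide, 0.798, 0.867 and 0.798 with CSF3R and 0.496 and 0.33 in double, and varied more between genotypes.

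For H2AK119ub the leading genes were Wnt10a, Wnt1 and Wnt11. Wnt10a had 0.736 and 0.695 in control, 0.788, 0.801 and 0.808 with the Asxl1 guide, 0.508, 0.67 and 0.851 with CSF3R and 0.885 and 0.855 in double. Wnt1 had 0.507 and 0.326 in control, 0.41, 0.414 and 0.408 with the Asxl1 guide, 0.635, 0.65 and 0.603 with CSF3R and 0.721 and 0.354 in double. Wnt11 (chr7:98835084-98854747), a ligand acting mainly without beta-catenin, had 0.43 and 0.335 in control, 0.236, 0.346 and 0.281 with the Asxl1 guide, 0.357, 0.386 and 0.396 with CSF3R and 0.469 and 0.261 in double. All 3 genes had this mark in all 10 libraries. In Wnt10a the double libraries were the highest, in Wnt1 the CSF3R libraries were above all control and Asxl1 guide libraries, and in Wnt11 the genotypes overlapped.

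Fzd7 and Fzd5, receptors of the gut and of many progenitor cells, had H2AK119ub without H3K27me3. Fzd7 (chr1:59482147-59486955) had H2AK119ub fractions of 0.0743 and 0.162 in control, 0.0642, 0.0979 and 0.111 with the Asxl1 guide, 0.199, 0.186 and 0.132 with CSF3R and 0.23 and 0.182 in double. Fzd5 (chr1:64730558-64737750), whose window also holds part of Ccnyl1, had 0.0872 and 0.096 in control, 0.111, 0.131 and 0.16 with the Asxl1 guide, 0.186, 0.125 and 0.172 with CSF3R and 0.291 and 0.189 in double. Neither gene had an H3K27me3 peak in any of the 10 libraries. IgG peaks covered 0 of the Fzd7 window and 0.0902 of the Fzd5 window, about as much as H2AK119ub covered at Fzd5 in control. The reverse was seen at Wnt5a and Sfrp1, where H3K27me3 was present in all 10 libraries while H2AK119ub was found in 1 library for Wnt5a and in 3 for Sfrp1. Counting a gene as marked at a genotype mean of at least 0.05, 21 members carried both marks in control, 18 with the Asxl1 guide, 22 with CSF3R and 22 in double, against 7.25%, 6.05%, 9.81% and 7.48% of all genes. Genes with H3K27me3 alone numbered 6, 10, 8 and 2 in the same order, against 3.26%, 5.71%, 6.28% and 1.73% of all genes. Those with H2AK119ub alone numbered 5, 3, 3 and 5, against 6.14%, 2.2%, 6.35% and 7.49%. Without H3K27me3 replicate 2 of the Asxl1 guide, the 3 counts for the guide were 15 with both marks, 5 with H3K27me3 alone and 6 with H2AK119ub alone, against 4.74%, 1.22% and 3.51% of all genes. The high count of H3K27me3 alone with the guide thus rested on that library.

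Both Polycomb marks sat on the gene starts. Within 2.5 kb of the start, 16 of the 27 members with a known start had an H3K27me3 peak in all 10 libraries and 3 (Fzd7, Fzd5 and Dkk1) in none. For H2AK119ub, 19 had a peak in all 10 and 2 (Fzd10 and Dkk1) in none. The mean profile over the 27 genes peaked in the first kilobase after the start, where it reached 0.687 for H3K27me3 in control, 0.566 with the Asxl1 guide (0.466 without its replicate 2), 0.770 with CSF3R and 0.637 in double. The H2AK119ub maxima were 0.589, 0.543, 0.615 and 0.670 in the same order. H3K4me1 was absent from the start of 26 of the 27, the exception being Rspo1.

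**Figure D2:**
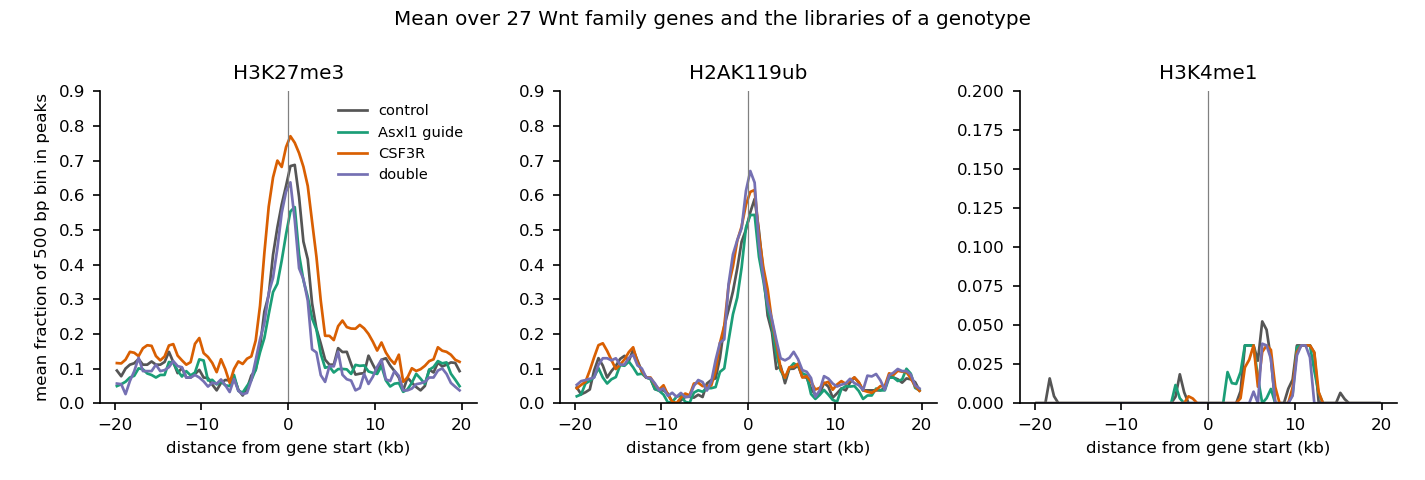
Mean fraction of each 500 bp bin in peaks by distance from the gene start (kb, from 20 kb before to 20 kb after), over the 27 members with a known start and the libraries of each genotype. H3K27me3 and H2AK119ub peak at the start in all 4 genotypes, the CSF3R line for H3K27me3 is the highest and widest, and H3K4me1 lies beyond the start.

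Across all 41 members the mean H3K27me3 fraction was 0.181 ± 0.0235 (SD, n = 2) in control, 0.141 ± 0.10 (SD, n = 3) with the Asxl1 guide, 0.262 ± 0.0254 (SD, n = 3) with CSF3R and 0.14 ± 0.0329 (SD, n = 2) in double. The Asxl1 guide libraries were 0.0539, 0.25 and 0.118, and replicate 2 alone gave the high value; without it the mean was 0.0858. The ratio to the mean over all genes was 7.18 ± 0.501 in control, 6.95 ± 1.27 with the Asxl1 guide, 6.15 ± 0.198 with CSF3R and 7.2 ± 0.394 in double (SD, same n). The CSF3R libraries (5.93 to 6.32) thus lay below both control libraries (6.83 and 7.54) in this ratio, although their fractions were higher. The H2AK119ub mean was 0.129 ± 0.0103 (SD, n = 2) in control, 0.115 ± 0.00996 (SD, n = 3) with the Asxl1 guide, 0.136 ± 0.0164 (SD, n = 3) with CSF3R and 0.152 ± 0.0387 (SD, n = 2) in double. Its ratio to all genes was 6.03 to 7.04 in the Asxl1 guide libraries and 3.48 to 5.02 in all others, without overlap, and the mean over all genes was also lowest there, at 0.015 to 0.0208.

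**Figure D3:**
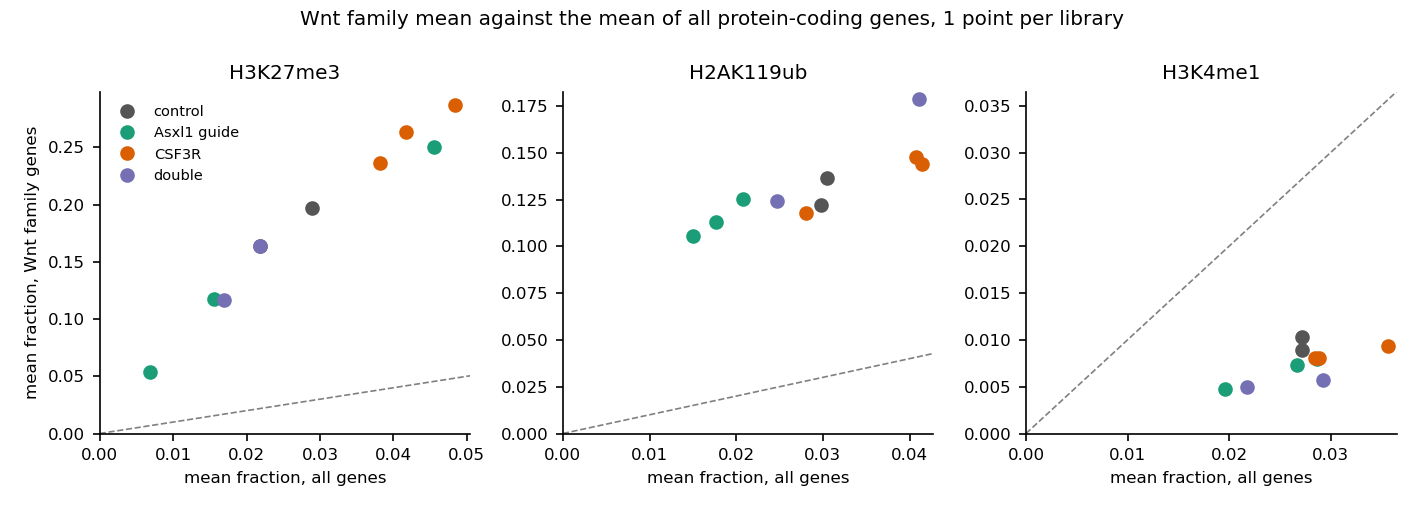
Mean fraction in peaks over the 41 family genes (vertical) against the mean over all 21883 genes (horizontal), 1 point per library coloured by genotype, with a dashed line where both would be equal (control replicate 1 and double replicate 1 lie on each other for H3K27me3). The family lies above the line for H3K27me3 and H2AK119ub and below it for H3K4me1, and the 3 Asxl1 guide points for H2AK119ub stand at the left.

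Differences were tested with limma on the fractions of all genes that reached the limit, with Benjamini-Hochberg adjustment over those genes, and a gene was called at an adjusted p under 0.05. In H3K27me3, the clearest difference lay between double and CSF3R. Fzd2, Wnt8b and Wnt10b were lower in double, 3 of the 29 members tested, where 11.9% of the 2794 genes tested were called lower. The share in the family was thus near that of all genes. All 29 members had a difference below 0, with a median of -0.133, as had 96.0% of all genes tested, with a median of -0.126. Relative to each library's mean over all genes this direction did not hold, with 18 of 29 members above 0.

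Fzd2 (chr11:102604431-102608058), a receptor for beta-catenin-dependent and -independent signals, had H3K27me3 fractions of 0.18 and 0.128 in control, 0.033, 0.161 and 0.11 with the Asxl1 guide, 0.338, 0.532 and 0.536 with CSF3R and 0 and 0.0881 in double. The 3 CSF3R libraries were above all others, and the double libraries and Asxl1 guide replicate 1 were the lowest. The mean fell from 0.468 ± 0.113 (SD, n = 3) to 0.044 ± 0.0623 (SD, n = 2), a difference of -0.424, SE 0.0691, adjusted p = 0.0145 by limma. Its H2AK119ub did not follow, with 0.106 and 0.106 in control, 0.0991, 0.106 and 0.106 with the Asxl1 guide, 0.139, 0.169 and 0.114 with CSF3R and 0.183 and 0.15 in double, and overlapped between CSF3R and double.

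Wnt8b (chr19:44493472-44514273), a ligand of the embryonic forebrain, had H3K27me3 fractions of 0.148 and 0.208 in control, 0.0114, 0.151 and 0.0406 with the Asxl1 guide, 0.339, 0.359 and 0.434 with CSF3R and 0.0812 and 0.0519 in double. The CSF3R libraries again lay above the rest, and the difference between double and CSF3R was -0.311, SE 0.0517, adjusted p = 0.0145 by limma. In the control and CSF3R libraries the mark lay mostly 15 to 23 kb past the start (chr19:44508472-44516471), a stretch that runs over the end of the gene, in a window that also holds part of Sec31b. Peaks covered 4150 and 5200 in control, 350, 3050 and 1250 with the Asxl1 guide, 7400, 6750 and 7629 with CSF3R and 1100 and 750 in double, in bp of that stretch. Close to the start, in the stretch from 2.5 kb to 0.5 kb before it, the covered length in CSF3R (1100, 1300 and 1200 bp) and double (1150 and 650 bp) overlapped. With a 10 kb window at the start in place of the whole gene, the difference was -0.0308 (adjusted p = 0.689).

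Wnt10b (chr15:98770712-98778206), a ligand made by some blood and marrow cells, had H3K27me3 fractions of 0.246 and 0.36 in control, 0.169, 0.314 and 0.234 with the Asxl1 guide, 0.577, 0.514 and 0.62 with CSF3R and 0.286 and 0.292 in double. All 3 CSF3R libraries were above the other 7, and the difference between double and CSF3R was -0.282, SE 0.0561, adjusted p = 0.0244 by limma. The start, whose promoter is printed above, kept the mark in all genotypes: within 2.5 kb of it the fractions were 0.79 and 0.97 in control, 0.59, 0.99 and 0.82 with the Asxl1 guide, 1, 0.99 and 1 with CSF3R and 0.94 and 0.86 in double. The stretch from 2.5 to 12 kb past the start (chr15:98766151-98775650) differed much more, with 350 and 1150 in control, 0, 250 and 0 with the Asxl1 guide, 4500, 3600 and 5400 with CSF3R and 300 and 500 in double in bp covered. The CSF3R libraries thus had more of the mark in this stretch, which runs over the gene body and past its end, and in the others it was largely kept to the start. The stretch was not split at the end of the gene. H2AK119ub over this stretch was 0, 300 and 2000 bp with CSF3R and 1700 and 1800 bp in double.

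**Figure D4:**
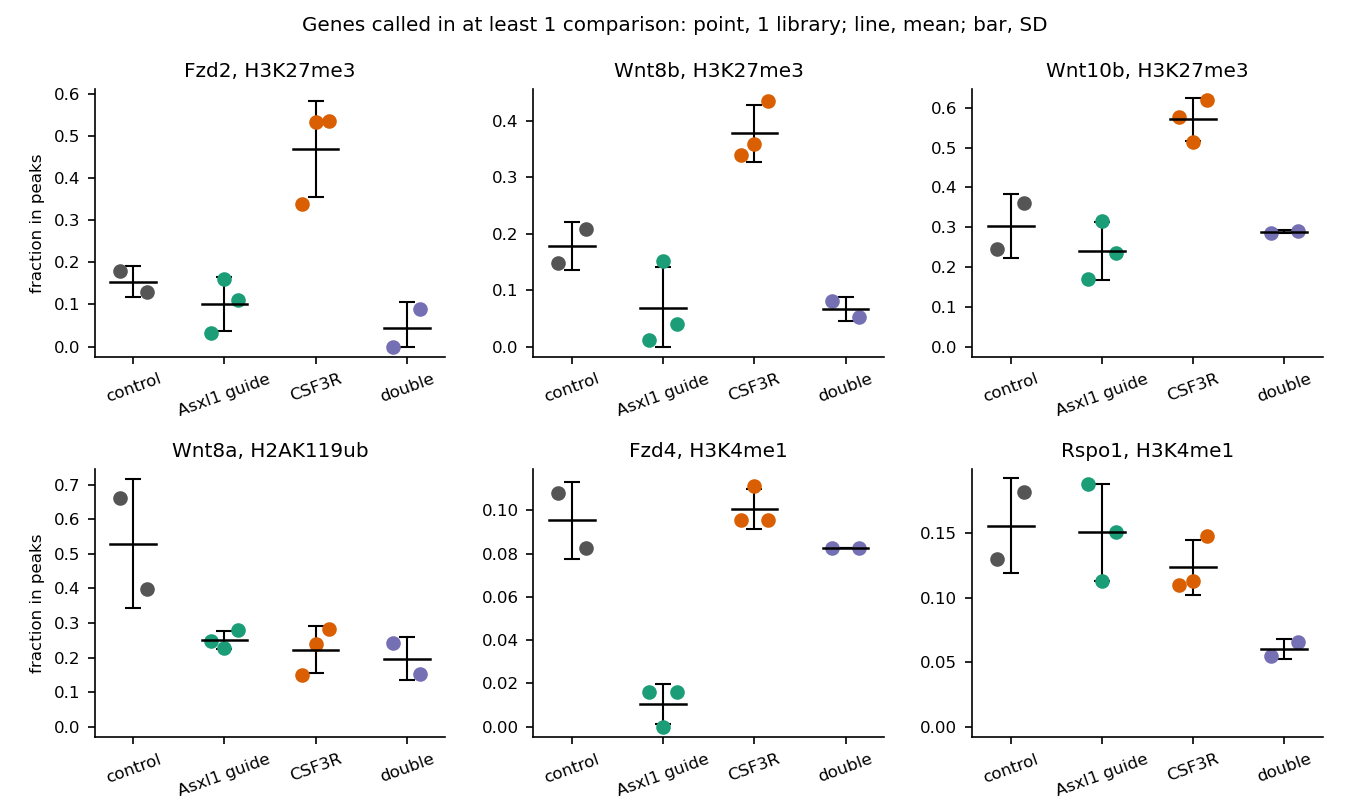
Fraction in peaks of the 6 genes called in at least 1 comparison, by genotype, with 1 point per library, a line at the mean and a bar of 1 SD that stops at 0. Fzd2, Wnt8b and Wnt10b have their highest H3K27me3 in CSF3R, Wnt8a has its highest H2AK119ub in control, Fzd4 has almost no H3K4me1 with the Asxl1 guide and Rspo1 has its lowest in double.

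These H3K27me3 calls depended on single libraries. Without Asxl1 guide replicate 2, which shares the estimate of the spread though not the comparison, 22 of the 29 members were called lower in double than in CSF3R, and 5 without Asxl1 guide replicate 1. For these fits and the covariate below no share of all genes is given, so the counts are not read as particular to the family. Without CSF3R replicate 2, CSF3R replicate 3, double replicate 1 or double replicate 2 none was called, and without Asxl1 guide replicate 3 Wnt10b was not (adjusted p = 0.0516). The covered length moved with the genotypes, at 31.3 to 42.2 Mb with CSF3R, 14.2 and 19.2 Mb in double and 15.9 and 22.7 Mb in control, and with its log2 as a covariate 7 members were called lower. With the fractions divided by each library's mean over all genes, which moved the median of all genes to -0.00564 and the calls over all genes from 1 higher and 333 lower to 29 and 102, 2 members were called, Wnt6 higher and Wnt8b lower at -0.155 (adjusted p = 0.0130), and the difference of Wnt10b turned to 0.0497 (adjusted p = 0.863).

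CSF3R against control gave no called member in H3K27me3, by limma, where 1% of all genes tested were called, all of them higher. An unadjusted p under 0.05 was reached by 6 of 29 members and by 20.9% of all genes tested. All 29 members had a difference above 0 (median 0.0916), as had 96.8% of all genes (median 0.0917), but only 8 of 29 were above 0 relative to the library mean. The leading members were Wnt10b (0.268, SE 0.0561, adjusted p = 0.0626), Fzd2 (0.314, SE 0.0691, adjusted p = 0.0648) and Wnt8b (0.199, SE 0.0517, adjusted p = 0.0901). In each the CSF3R and control libraries did not overlap, but they were picked by p and overlap was not counted over all genes. The same CSF3R libraries serve in this comparison and in that with double. Without Asxl1 guide replicate 2, 9 members were called higher with CSF3R, and 8 with only the CSF3R and control libraries in the fit. The shares of all genes called in these fits are not given, so the counts cannot be set against the 1% above. Summed H3K27me3 over marker genes of other cells moved the same way. For 7 stromal and other non-blood markers, of which 5 had a mean of at least 0.05, the sums were 0.607 to 0.832 in control, 0.198 to 1.69 with the Asxl1 guide, 1.21 to 1.69 with CSF3R and 0.611 to 0.618 in double. For 6 erythroid and megakaryocyte markers (1 at that mean, Klf1, Hbb-bt and Pf4 at 0) they were 0.0511 to 0.157, 0 to 0.0272, 0.238 to 0.349 and 0. Their part in the H3K27me3 differences was not tested.

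The Asxl1 guide alone gave no called member in H3K27me3 against control, by limma, with 0% of all genes called. An unadjusted p under 0.05 was found for 1 of 29 members and 4.40% of all genes tested. Wnt8a had the smallest p (-0.346, SE 0.129, adjusted p = 0.924), followed by Wnt8b (-0.11, SE 0.0517, adjusted p = 1) and Wnt1 (-0.215, SE 0.145, adjusted p = 1). Their groups overlapped since Asxl1 guide replicate 2 lay between or above the control libraries. Without that replicate, Wnt8a, Wnt8b, Wnt9a and Wnt11 were called lower. The share of all genes called in that fit is not given, so these calls cannot be set against the 0% above. Double against the Asxl1 guide also gave none, with 0% of all genes called. It had 0 of 29 members and 1.68% of all genes tested at an unadjusted p under 0.05. Its leading members were Wnt11, Sfrp1 and Wnt10a, with differences of 0.0801, -0.0478 and 0.158 and adjusted p = 1 for each. Wnt11 had H3K27me3 fractions of 0.312 and 0.31 in control, 0.126, 0.352 and 0.224 with the Asxl1 guide, 0.425, 0.448 and 0.445 with CSF3R and 0.332 and 0.297 in double. Sfrp1, a Wnt-binding antagonist, had 0.0601 and 0.0984 in control, 0.0197, 0.114 and 0.0674 with the Asxl1 guide, 0.087, 0.0933 and 0.087 with CSF3R and 0.0166 and 0.0218 in double, the double libraries being among the 3 lowest. The interaction of guide and CSF3R, which asks whether the guide acts differently in CSF3R cells, called no member and 0% of all genes. It had 4 of 29 members and 9.27% of all genes tested at an unadjusted p under 0.05. It was led by Fzd2 (-0.372, SE 0.0977, adjusted p = 0.419), Wnt10b (-0.218) and Wnt8b (-0.20), the last 2 at an adjusted p of 0.516 by limma.

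In H2AK119ub 1 of 26 members tested was lower with the Asxl1 guide than in control, Wnt8a, where 9.23% of the 2978 genes tested were called lower, 0.369% higher and 9.6% either way. Wnt8a had H2AK119ub fractions of 0.661 and 0.397 in control, 0.248, 0.229 and 0.28 with the Asxl1 guide, 0.149, 0.238 and 0.283 with CSF3R and 0.241 and 0.153 in double. Both control libraries were above all 8 others. The mean fell from 0.529 ± 0.186 (SD, n = 2) to 0.252 ± 0.0257 (SD, n = 3), a difference of -0.277, SE 0.072, adjusted p = 0.0466 by limma. Without control replicate 1 the difference was -0.145. The call was lost without that library, any of the 3 Asxl1 guide replicates, CSF3R replicate 2 or CSF3R replicate 3, with adjusted p up to 0.231, with only the 2 genotypes in the fit (0.0724), and when IgG peak bases were taken out (adjusted p = 0.0505). The median difference of the tested members was -0.0234 and that of all genes -0.0604, and 18 of 26 members lay below 0, against 84.4% of all genes.

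Beside Wnt8a, Wnt6 and Wnt3a had the smallest p. Wnt6 (chr1:74754342-74785322), a ligand of epithelia, had 0.211 and 0.221 in control, 0.304, 0.34 and 0.319 with the Asxl1 guide, 0.229, 0.238 and 0.268 with CSF3R and 0.421 and 0.31 in double, and Wnt3a (chr11:59248036-59290751), a classical beta-catenin ligand, had 0.207 and 0.214 in control, 0.136, 0.114 and 0.116 with the Asxl1 guide, 0.109, 0.158 and 0.152 with CSF3R and 0.204 and 0.131 in double. The Asxl1 guide libraries were above control for Wnt6 (0.105, SE 0.0347, adjusted p = 0.0882) and below it for Wnt3a (-0.0889, SE 0.030, adjusted p = 0.0917), without overlap, and neither passed the test. Such separation was not counted over all genes. With fractions divided by each library's mean over all genes, 7 members (Fzd5, Wnt6, Wnt10a, Fzd9, Fzd4, Wnt9a and Wnt7b) were called higher with the Asxl1 guide and Wnt8a was not called (-0.0922, adjusted p = 0.317). Over all genes this scaling called 306 higher and 321 lower, in place of 11 and 275. The direction for the family in this comparison turned with the scaling: 22 of 26 members were above 0 with it, and 8 of 26 without it.

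CSF3R against control gave no called member in H2AK119ub, by limma, with 0.47% of all genes called, all higher. It had 3 of 26 members and 13.0% of all genes tested at an unadjusted p under 0.05. Its leading members were Wnt8a (-0.306, SE 0.072, adjusted p = 0.113), Wnt3a (-0.071, SE 0.030, adjusted p = 0.36) and Wnt1 (0.213, SE 0.0927, adjusted p = 0.373). Wnt8a and Wnt3a had lower fractions and Wnt1 higher ones with CSF3R, and none of the 3 overlapped with control. These 3 were picked by their p, and the share of all genes without overlap was not counted.

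Double against CSF3R gave no called member either, where 10.6% of all genes were called, 3.59% higher and 6.98% lower (107 and 208 genes, and 198 and 192 with fractions divided by the library mean). An unadjusted p under 0.05 by limma was reached by 4 of 26 members and by 30.4% of all genes tested. Of the members 19 of 26 lay above 0 with a median of 0.0212, while 37.6% of all genes did, with a median of -0.0261. The count was 22 of 26 relative to the library mean and 14 of 26 with covered length as a covariate, and the difference from all genes was not tested. For the fits with a library left out that follow, no share of all genes is given, so their calls are not read as particular to the family. Wnt6 led with the values given above (0.121, SE 0.0347, adjusted p = 0.0592). Wnt7b (chr15:85535437-85581821), a ligand of lung and bone, had 0.143 and 0.177 in control, 0.154, 0.186 and 0.215 with the Asxl1 guide, 0.131, 0.165 and 0.209 with CSF3R and 0.357 and 0.24 in double, with both double libraries above all others (0.13, SE 0.0406, adjusted p = 0.0757). Rspo1 (chr4:124986401-125009102), an R-spondin made by stroma, had 0.214 and 0.105 in control, 0.0474, 0.081 and 0.101 with the Asxl1 guide, 0.185, 0.239 and 0.284 with CSF3R and 0.141 and 0.113 in double, with double below CSF3R (-0.109, SE 0.0411, adjusted p = 0.117). Without double replicate 2, Wnt6 and Wnt7b were called higher. Without double replicate 1, Wnt1 was called lower, and without CSF3R replicate 3, Wnt10a was called higher.

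Against the Asxl1 guide, the double libraries had more H2AK119ub over 24 of 26 members, with a median difference of 0.0611, near that over all genes (0.0605, with 86.3% above 0). No member was called by limma, where 9.1% of all genes were called higher and 0.134% lower. An unadjusted p under 0.05 was reached by 6 of 26 members and by 28.4% of all genes tested. Fzd7 (0.115, SE 0.0362, adjusted p = 0.0815), Wnt5b (0.0896, SE 0.030, adjusted p = 0.0973) and Fzd5 (0.106, SE 0.0359, adjusted p = 0.0989) led. In each the double libraries were above all Asxl1 guide libraries, a separation not counted over all genes, in members picked by p. The fits with a library left out that follow carry no share of all genes, so their calls are not read as particular to the family. Wnt5b (chr6:119432531-119544824), a ligand that acts mainly without beta-catenin, had H2AK119ub fractions of 0.0765 and 0.0568 in control, 0.00736, 0.0307 and 0.0188 with the Asxl1 guide, 0.0748, 0.111 and 0.0846 with CSF3R and 0.149 and 0.0679 in double, lowest in the Asxl1 guide libraries. Without double replicate 2, 6 members were called higher, and without CSF3R replicate 3, Wnt10b. With fractions divided by the library mean, Wnt2b, Wnt6, Wnt8a, Wnt9a and Wnt10a were called lower in double, only 5 of 26 members lay above 0, and over all genes 262 were called higher and 292 lower, in place of 271 and 4. The interaction called none, with 0% of all genes called, and had 2 of 26 members and 10.4% of all genes at an unadjusted p under 0.05. It was led by Wnt3a (0.117, SE 0.0424, adjusted p = 0.395), Wnt8a (0.251, SE 0.102, adjusted p = 0.431) and Rspo4 (0.0806, SE 0.041, adjusted p = 0.535) by limma. Rspo4 (chr2:151842647-151874668), the R-spondin of nail growth, had low fractions, 0.0821 and 0.0357 in control, 0.0393, 0.044 and 0.0452 with the Asxl1 guide, 0.019, 0.0155 and 0.0575 with CSF3R and 0.124 and 0.0666 in double.

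H3K4me1, the enhancer mark, was found at few members. In double against the Asxl1 guide, 1 of 3 members tested was higher (Fzd4) and 1 lower (Rspo1), where 9.71% of the 3079 genes tested were called higher and 9% lower. No member was called in the other 4 comparisons by limma. Of all genes, 0.0974% were called for the Asxl1 guide against control, all lower. For CSF3R against control 8.8% were called, 7.24% higher and 1.56% lower. Between double and CSF3R 10.5% were called, 1.53% higher and 9% lower, and for the interaction 0.877%, with 0.26% higher and 0.617% lower. With fractions divided by the library mean, the split of higher against lower genes went from 223 and 48 to 202 and 152 for CSF3R against control and from 47 and 277 to 158 and 157 for double against CSF3R. The members at an unadjusted p under 0.05 in these 4 comparisons numbered 1, 0, 2 and 1 of 3, against 6.79%, 22.1%, 28.1% and 11.8% of all genes tested. Summed H3K4me1 fractions of the 11 myeloid markers also differed between genotypes, at 2.52 to 2.57 in control, 2.12 to 2.74 with the Asxl1 guide, 3.08 to 3.79 with CSF3R and 3.22 to 3.86 in double. Those of 6 erythroid and megakaryocyte markers were 0.0682 to 0.0902, 0, 0.0316 to 0.122 and 0.142 to 0.380 in the same order, with Epor and Hbb-bt at 0 in all libraries. The part of either in the differences that follow was not tested.

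Fzd4 (chr7:89404366-89410110), the receptor of the retinal vessels, had H3K4me1 fractions of 0.108 and 0.0826 in control, 0.0159, 0 and 0.0159 with the Asxl1 guide, 0.0953, 0.111 and 0.0953 with CSF3R and 0.0826 and 0.0826 in double. The 3 Asxl1 guide libraries were the lowest and did not overlap with any other genotype, a separation not counted over all genes. The mean was 0.0106 ± 0.00917 (SD, n = 3) with the Asxl1 guide and 0.0826 ± 0 (SD, n = 2) in double, a difference of 0.072, SE 0.0159, adjusted p = 0.0161 by limma, and that between the Asxl1 guide and control was -0.0847, SE 0.0159, adjusted p = 0.148. Asxl1 guide replicate 2 had no peak of the mark in the window, and control replicate 1 had a second peak elsewhere in it. In the other libraries the mark sat in 1 place, 5.5 to 8 kb past the start (chr7:89409866-89412365). This stretch begins in the last bases of the gene and lies mainly beyond its end. Peaks covered 1450 and 1300 in control, 250, 0 and 250 with the Asxl1 guide, 1500, 1750 and 1500 with CSF3R and 1300 and 1300 in double, in bp of that stretch. No IgG peak lay in the window. The call was lost without double replicate 1 (adjusted p = 0.0664) or double replicate 2 (0.0509), and with only the 2 genotypes in the fit (0.0567).

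The start of Fzd4, whose window also holds part of Tmem135, carried other marks. H2AK119ub was present there in all 10 libraries, with fractions within 2.5 kb of 0.507 and 0.29 in control, 0.49, 0.48 and 0.53 with the Asxl1 guide, 0.50, 0.527 and 0.517 with CSF3R and 0.63 and 0.43 in double. H3K27me3 was seen there in both double libraries and in 1 CSF3R library, at 0 and 0 in control, 0, 0 and 0 with the Asxl1 guide, 0, 0 and 0.0568 with CSF3R and 0.52 and 0.20 in double. Its whole-window mean of 0.0289 was below the limit, so this difference was not tested, and the pattern was picked out after the values were seen.

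Rspo1 had H3K4me1 fractions of 0.13 and 0.182 in control, 0.188, 0.113 and 0.151 with the Asxl1 guide, 0.11, 0.113 and 0.148 with CSF3R and 0.055 and 0.0657 in double. The double libraries were the lowest, and the difference between double and the Asxl1 guide was -0.0905, SE 0.0261, adjusted p = 0.0438 by limma. The mark lay in 2 stretches inside the gene. In the first, 2 to 7 kb past the start (chr4:124988430-124993429), peaks covered 1700 and 2950 in control, 3400, 1550 and 2550 with the Asxl1 guide, 1450, 750 and 1800 with CSF3R and 0 and 200 in double, in bp. In the other, 9.5 to 13 kb past the start (chr4:124995930-124999429), they covered 2550 and 2750 in control, 2750, 2150 and 2400 with the Asxl1 guide, 2150, 2950 and 2750 with CSF3R and 1800 and 1950 in double. Only the first was nearly empty in double, while the other held at least 1800 bp in every library. At the start of Rspo1, H3K27me3 fractions within 2.5 kb were 0.050 and 0.51 in control, 0.090, 0.754 and 0.12 with the Asxl1 guide, 0.924, 1 and 1 with CSF3R and 0.674 and 0.474 in double. The call was lost, with adjusted p between 0.0520 and 0.163, without either control replicate, Asxl1 guide replicate 1 or 3, CSF3R replicate 1 or 2, or either double replicate.

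Wnt5b had H3K4me1 fractions of 0.127 and 0.13 in control, 0.114, 0.083 and 0.103 with the Asxl1 guide, 0.124, 0.104 and 0.136 with CSF3R and 0.0752 and 0.0495 in double, and the double libraries were the lowest. The difference between double and CSF3R was -0.0589, SE 0.0179, adjusted p = 0.0699 by limma and did not pass. The mark filled 3 stretches within the gene. In the one farthest from the start, 84.5 to 89 kb past it (chr6:119455348-119459847), peaks covered 3750 and 3100 in control, 3150, 800 and 2400 with the Asxl1 guide, 3400, 2950 and 3200 with CSF3R and 0 and 0 in double, in bp. In the middle stretch, 67.5 to 74.5 kb past the start (chr6:119469848-119476847), they covered 5150 and 6300 in control, 4650, 4300 and 4250 with the Asxl1 guide, 6400, 4200 and 6200 with CSF3R and 4900 and 2100 in double. The nearest, 54.5 to 61.5 kb past the start (chr6:119482848-119489847), was covered over 3950 to 6300 bp. The far stretch was thus empty in both double libraries and in no other. H2AK119ub covered 1453 and 500 bp of it in double and 0 bp in the other 8 libraries. The stretches of these 3 genes were chosen after the peaks were seen and were not tested on their own.

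**Figure D5:**
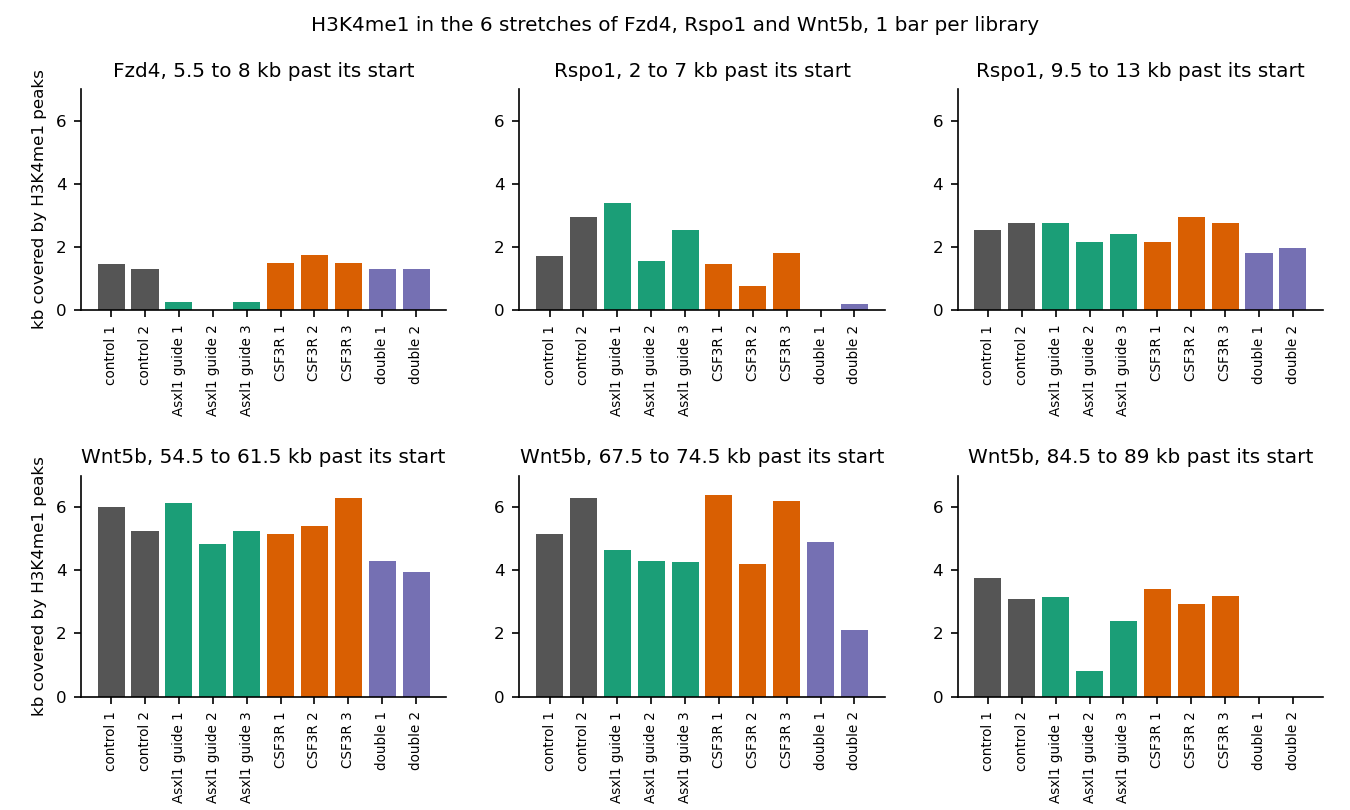
Length covered by H3K4me1 peaks (kb) in 1 stretch of Fzd4, 2 of Rspo1 and 3 of Wnt5b, 1 bar per library coloured by genotype. The Fzd4 stretch is nearly empty with the Asxl1 guide, the first Rspo1 stretch and the far Wnt5b stretch are empty or nearly so in double, and the other 3 stretches are covered in every library.

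Other genes of the pathway were counted from a list of 42 receptors, processing enzymes, antagonists, transducers and nuclear factors. Of the 42, 16 were tested for H3K27me3, 13 for H2AK119ub and 5 for H3K4me1. The limit for testing was reached, in the same order of marks, by 2, 2 and 1 of 9 coreceptors and other receptors. For transducers it was 0, 1 and 0 of 8, and for feedback targets 3, 2 and 0 of 3. None of those tested in these lists was called in any comparison. In H3K27me3 2 of 16 were called, both lower in double than in CSF3R, where 11.9% of all genes were: Kremen2, a Dickkopf receptor (-0.294, SE 0.0702, adjusted p = 0.0366), and Porcn, the enzyme that adds the lipid to Wnt proteins (-0.215, SE 0.049, adjusted p = 0.0333). Kremen2 had 0.264 and 0.44 in control, 0.207, 0.393 and 0.247 with the Asxl1 guide, 0.501, 0.569 and 0.61 with CSF3R and 0.264 and 0.268 in double. Porcn had 0.0617 and 0.11 in control, 0.00881, 0.161 and 0.0991 with the Asxl1 guide, 0.262, 0.22 and 0.277 with CSF3R and 0.0573 and 0.0198 in double. In both the CSF3R libraries were the highest, and both calls were lost without CSF3R replicate 1, 2 or 3, either double replicate or Asxl1 guide replicate 3, and that of Porcn also without either control replicate. Relative to the library mean neither was called, with 0.0239 for Kremen2 and -0.116 (adjusted p = 0.162) for Porcn.

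In H2AK119ub 1 of 13 was called lower for the Asxl1 guide against control (9.23% of all genes), 1 higher and 1 lower for double against CSF3R (3.59% and 6.98%) and 1 higher for double against the guide (9.1%). Bcl9l, a beta-catenin coactivator, was lower with the Asxl1 guide than in control (-0.296, SE 0.0673, adjusted p = 0.0345) and lower in double than in CSF3R (-0.332, SE 0.0673, adjusted p = 0.0225). Its fractions were 0.404 and 0.313 in control, 0.0472, 0.0868 and 0.0523 with the Asxl1 guide, 0.341, 0.577 and 0.447 with CSF3R and 0.192 and 0.0549 in double. All 5 libraries with the guide were below all 5 without it, a separation not counted over all genes. The first of these calls was lost without any 1 of the control or Asxl1 guide replicates and with covered length as a covariate (-0.189, adjusted p = 0.154), and the other without CSF3R replicate 3 or double replicate 2. Tcf7l2, a nuclear partner of beta-catenin, was higher in double than in CSF3R (0.123, SE 0.0295, adjusted p = 0.0363), and Sost, a coreceptor antagonist of bone, was higher in double than with the Asxl1 guide (0.238, SE 0.0617, adjusted p = 0.0466). Tcf7l2 had 0.128 and 0.118 in control, 0.102, 0.127 and 0.122 with the Asxl1 guide, 0.0352, 0.0622 and 0.0424 with CSF3R and 0.21 and 0.128 in double. Sost had 0.206 and 0.189 in control, 0.103, 0.0893 and 0.185 with the Asxl1 guide, 0.0824, 0.22 and 0.151 with CSF3R and 0.464 and 0.264 in double. Both calls were lost when any 1 of several libraries was left out, with adjusted p up to 0.0926 for Tcf7l2 and 0.323 for Sost, whose difference was 0.139 without double replicate 1. With covered length as a covariate the difference of Sost was 0.00391 (adjusted p = 0.983).

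In H3K4me1, Rnf43, the ubiquitin ligase that removes Frizzled receptors from the surface, fell with CSF3R. It was 1 of 5 pathway genes called lower for CSF3R against control (1.56% of all genes) and 1 of 5 for double against the Asxl1 guide (9%). Its fractions were 0.164 and 0.135 in control, 0.166, 0.108 and 0.138 with the Asxl1 guide, 0.0224, 0.0303 and 0.0376 with CSF3R and 0.0358 and 0.0212 in double. The 5 libraries with CSF3R T618I were all below the 5 without it, a separation not counted over all genes. The difference was -0.119, SE 0.0203, adjusted p = 0.00873 for CSF3R against control and -0.109, SE 0.0203, adjusted p = 0.00864 for double against the Asxl1 guide by limma. The first was lost without control replicate 1 (adjusted p = 0.0917), and both with a 10 kb window at the start (adjusted p = 0.634 and 0.377). Pygo2, another beta-catenin coactivator, had 0.11 and 0.107 in control, 0.0633, 0.0566 and 0.0499 with the Asxl1 guide, 0.0966, 0.107 and 0.107 with CSF3R and 0.0366 and 0.030 in double and was lower in double than in CSF3R (-0.0699, SE 0.0144, adjusted p = 0.0197), 1 of 5 where 9% of all genes were lower, a call lost without CSF3R replicate 3 or either double replicate. None of the 3 H3K4me1 members of the ligand and receptor family shared the pattern of Rnf43, as their control and CSF3R libraries overlapped.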

How the data were processed

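The 30 CUT&Tag libraries comprised 3 marks in 4 genotypes, with 1 further peak list from 2 merged IgG libraries. The authors deposited 1 peak list per library in mm10 with positions and no heights, scores or counts. The submitters' processing notes name Bowtie2 2.4.1 and deepTools 3.5. The sources used here do not state the peak caller, its threshold or the depth.

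The fraction of each gene plus 5 kb on each side in peaks was computed with Python 3.11.15 and numpy 2.4.6 for the 21883 protein-coding genes of the RefSeq table (GRCm38.p6). Genes with a mean fraction of at least 0.05 over a mark's 10 libraries were tested with limma 3.58.1 in R 4.3.3, using 4 genotype means per mark and 5 comparisons, with Benjamini-Hochberg adjustment over all genes tested. The scripts were tested on simulated data whose gene means lay away from 0 and whose spread was capped. That test does not show how calls behave at fractions near 0 or with an outlying library. The members and lists were chosen with earlier results of these data known.

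Values in every library were given for members called at an adjusted p under 0.05, for up to 3 by unadjusted p where none was called and for the 3 highest means per mark, and pathway genes were named only where called. Starts came from a promoter table that holds 27 members. The alternatives were other filters (0.1 or none), the gene body, 10 kb at the start, peaks of at least 500 bp, IgG bases subtracted, the log2 covered length as a covariate, division by the library mean, replicate blocks, each library left out, and, added after the data were seen, only the genotypes compared and the count with both Polycomb marks without 1 library.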

Additional observations from a re-analysis of the deposited data

How the results depend on the processing

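Of 302 recomputed counts, 239 were within 1.5 times the count given and 63 were not. No share of all genes is given beside the recomputed counts of members below, unless stated, so none is read as particular to the family. Of 978 recomputed differences of named genes, 819 kept their direction and their side of the threshold, 117 lost a call, 27 gained one and 15 turned. In H3K27me3, double against CSF3R (3 members called) gave 5 with the 10 kb start window, 7 with covered length as a covariate, 0 with the replicate block and 21 with only the 2 genotypes in the fit, and 0 to 22 with 1 library left out. CSF3R against control (0) gave 1 for gene bodies, 3 with the covariate and 8 with only the 2 genotypes, and 0 to 9 with 1 library left out. The Asxl1 guide against control (0) gave 1 with the covariate and 2 relative to the library mean, and 0 to 4 with 1 library left out. In H2AK119ub, the Asxl1 guide against control (1) gave 0 without a filter, for gene bodies, at the 10 kb start window, with IgG bases subtracted, with the covariate and with the replicate block, 7 relative to the library mean and 3 with only the 2 genotypes, and 0 to 3 with 1 library left out. Double against the Asxl1 guide (0) gave 5 relative to the library mean and 0 to 6 with 1 library left out. Double against CSF3R (0) gave 4 with the covariate and 1 relative to the library mean, and 0 to 2 with 1 library left out. With the covariate, the calls over all genes in that comparison went from 107 higher and 208 lower to 182 and 761. In H3K4me1, double against the Asxl1 guide (2) gave 0 at a filter of 0.1, 1 without a filter, 1 for gene bodies, 0 at the 10 kb start window, 1 with the replicate block and 0 with only the 2 genotypes, and 0 to 2 with 1 library left out. Double against CSF3R (0) gave 1 without a filter and 1 with the covariate, and the Asxl1 guide against control (0) gave 1 without a filter. Members covered by both Polycomb marks numbered 10, 6, 9 and 7 (control, Asxl1 guide, CSF3R, double) at a mean of at least 0.2, and 15 with the guide without its replicate 2.

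Directions turned relative to the library mean for Wnt10b (0.0497) and Kremen2 (0.0239) in H3K27me3 of double against CSF3R, Wnt1 in H3K27me3 of the Asxl1 guide (0.00797), Fzd5 in H2AK119ub of double against the Asxl1 guide (-0.00371), and, in H3K4me1, Fzd4 in CSF3R against control (-0.00586) and double against CSF3R (0.000356) and Rspo1 with the Asxl1 guide (0.00714). They turned at the 10 kb start window for Wnt8b in H3K27me3 of the Asxl1 guide (0.0433), Wnt5b in H2AK119ub of double against the Asxl1 guide (-0.00417) and Rspo1 in H3K4me1 of the Asxl1 guide (0.0775). In H3K4me1 they also turned for Rspo1 of the Asxl1 guide with the covariate (0.00603), without control replicate 2 (0.0209) and without Asxl1 guide replicate 2 (0.0138), for Fzd4 of CSF3R without control replicate 2 (-0.00741) and for Wnt5b of CSF3R without CSF3R replicate 2 (0.00102). With 1 library left out, these H3K4me1 differences ran from -0.00741 to 0.0180 for Fzd4, from -0.0311 to 0.0209 for Rspo1 and from -0.0147 to 0.00102 for Wnt5b. The cause of these changes was not tested.

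Same-numbered libraries did not deviate together in every pair. Correlations of their deviations from the genotype means ran from -0.398 to 0.313 for H3K27me3, from -0.178 to 0.0823 for H2AK119ub and from -0.0943 to 0.431 for H3K4me1. Their medians were 0.0242, 0.0346 and 0.199, against 0, -0.0208 and -0.166 between other numbers, the widest gap being in H3K4me1. In a genotype with 2 libraries the deviations mirror each other, so these correlations cannot settle whether the numbers pair the libraries. The main fits did not pair them. With the replicate block, adjusted p was 0.0532 for Fzd2, 0.0623 for Wnt8b and 0.082 for Wnt10b in H3K27me3 of double against CSF3R, 0.0719 for Wnt8a in H2AK119ub and 0.0843 for Rspo1 in H3K4me1, while Fzd4 kept its call. Among pathway genes it was 0.0847 and 0.08 for Bcl9l (the Asxl1 guide against control, double against CSF3R), 0.0745 for Kremen2, 0.0963 for Porcn, 0.0955 for Sost and 0.116 for Tcf7l2, while Rnf43 and Pygo2 kept theirs. Peak lists without heights do not show how far a region lay below the caller's threshold, and 2 to 3 libraries per genotype limit the precision.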
